A study of Mus musculus with 24 samples.

Results

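The epidermal differentiation complex (EDC) is a cluster of genes on mouse chromosome 3 whose products build the cornified envelope, the protein shell of terminally differentiated squamous cells. Genes were taken into the set by symbol. It holds those whose symbol starts with Sprr, Lce or S100a, together with Ivl, Lor, Flg, Flg2, Rptn, Hrnr, Tchh, Crnn and Crct1, each with at least 1 count in some tumor. The rule found 62 of the 53465 genes in the deposited table, of which 37219 had at least 1 count. They were 18 Sprr genes and Ivl together, 23 genes of the Lce group with Lor and Crct1, 6 genes of the fused S100 type (Flg, Flg2, Rptn, Hrnr, Tchh and Crnn) and 15 S100a genes. On the GRCm38 annotation, 61 of them lay on chromosome 3 between positions 90511034 and 93564643. The exception was S100a11-ps, a processed pseudogene on chromosome 12 with 1 count in all tumors.

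When a keratinocyte leaves the basal layer and cornifies, transglutaminases cross-link involucrin (Ivl), loricrin (Lor), the small proline-rich (Sprr) proteins and the late cornified envelope (Lce) proteins under the cell membrane. Filaggrin and its relatives of the fused S100 type bundle keratin filaments or join the envelope, and the small calcium-binding S100 proteins have roles that reach well beyond the epidermis. Normal urothelium does not cornify, whereas bladder cancers of the basal/squamous (Ba/Sq) subtype often show squamous differentiation, and these genes are among its markers.

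The tumors came from BURP lines, which are bladder tumors kept by passage under the skin of mice. Male and female C57BL/6NTac mice were given BBN, a bladder carcinogen, at 0.1% in the drinking water from 8 weeks of age for up to 36 weeks, and the tumors were passaged in hosts of the same strain and sex. All groups share this exposure, strain and site of growth, so there was no untreated or normal bladder group. RNA of 24 tumors was sequenced, with 3 tumors per line. Of the Ba/Sq lines, those numbered BURP-12BaSq, 17BaSq and 18BaSq had a male donor, and those numbered BURP-21BaSq, 24BaSq and 25BaSq a female donor. BURP-16SR (stroma-rich) and BURP-19NE (neuroendocrine-like) each came from a male donor. Each line stems from 1 donor mouse, so subtype, sex and donor cannot be told apart where a group holds 1 line. The p-values for BURP-16SR and BURP-19NE therefore describe these lines only.

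Total estimated counts per tumor ran from 9295747 to 25370356, with a median of 17693198. Levels are given as CPM (counts scaled to a common library total) after TMM normalization, and the level that 3 counts amount to lay between 0.110 CPM and 0.392 CPM in all tumors but C102-M30 of BURP-25BaSq, where it was 1.28 CPM. In that tumor the ribosomal RNA gene CT010467.1 took 61.9% of the counts, which left 3725763 for all other genes. Over the 12043 genes outside the complex with a mean of at least 5 CPM, 17 of the 18 Ba/Sq tumors correlated best with the other tumors of their own line. The exception was C102-M1 of BURP-25BaSq, with a Pearson's r across genes of 0.677 with BURP-21BaSq and -0.246 with its own line, which leaves its label in doubt. Results that rest on these tumors are given with and without them. The epithelial marker list (10 genes, among them Krt5, Krt14 and Epcam) summed to 6708 to 12720 CPM in the Ba/Sq tumors, 225 to 528 CPM in BURP-16SR and 141 to 214 CPM in BURP-19NE, where Krt5 was at 0.0425 CPM or below. In bulk tissue, fewer squamous cells and less RNA per squamous cell cannot be told apart.

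Together the members took from 0.0891% to 0.882% of the counts outside CT010467.1. Of the 62, 30 reached a mean of 10 CPM in some line, 17 peaked between 1 and 10 CPM and 15 stayed under 1 CPM in every line. The last were S100a11-ps, S100a5, Sprr2c-ps, Sprr4, Lce6a, Lce1b, Lce1a2, Lce1c, Lce1e and Lce1h to Lce1m, for which little can be said at this depth. Per kb of exon, the members with the most RNA in the Ba/Sq tumors were S100a11 at 815 CPM per kb, Sprr1a at 745, Sprr2a2 at 271, S100a6 at 268 and Sprr3 at 190. The late-stage genes were far lower on that scale, with Lce3c at 21.3 CPM per kb and Lor at 6.13. Estimated counts divide reads among similar genes, and 36 of the 62 members share at least 1 stretch of 50 bases with another gene. The share of such stretches was 96.3% for Sprr2a1, 96.5% for Sprr2a2 and 61.1% for Sprr2a3, and 35.7% to 49.3% for Lce3c to Lce3f, so how counts divide within these families is uncertain. S100a4 shared 47.4% with Gm42674 and S100a11 shared 41.1%, with pseudogenes among its partners. The Sprr2a1 and Sprr2a2 annotations overlap, as do those of S100a3 and S100a2.

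**Figure D1:**
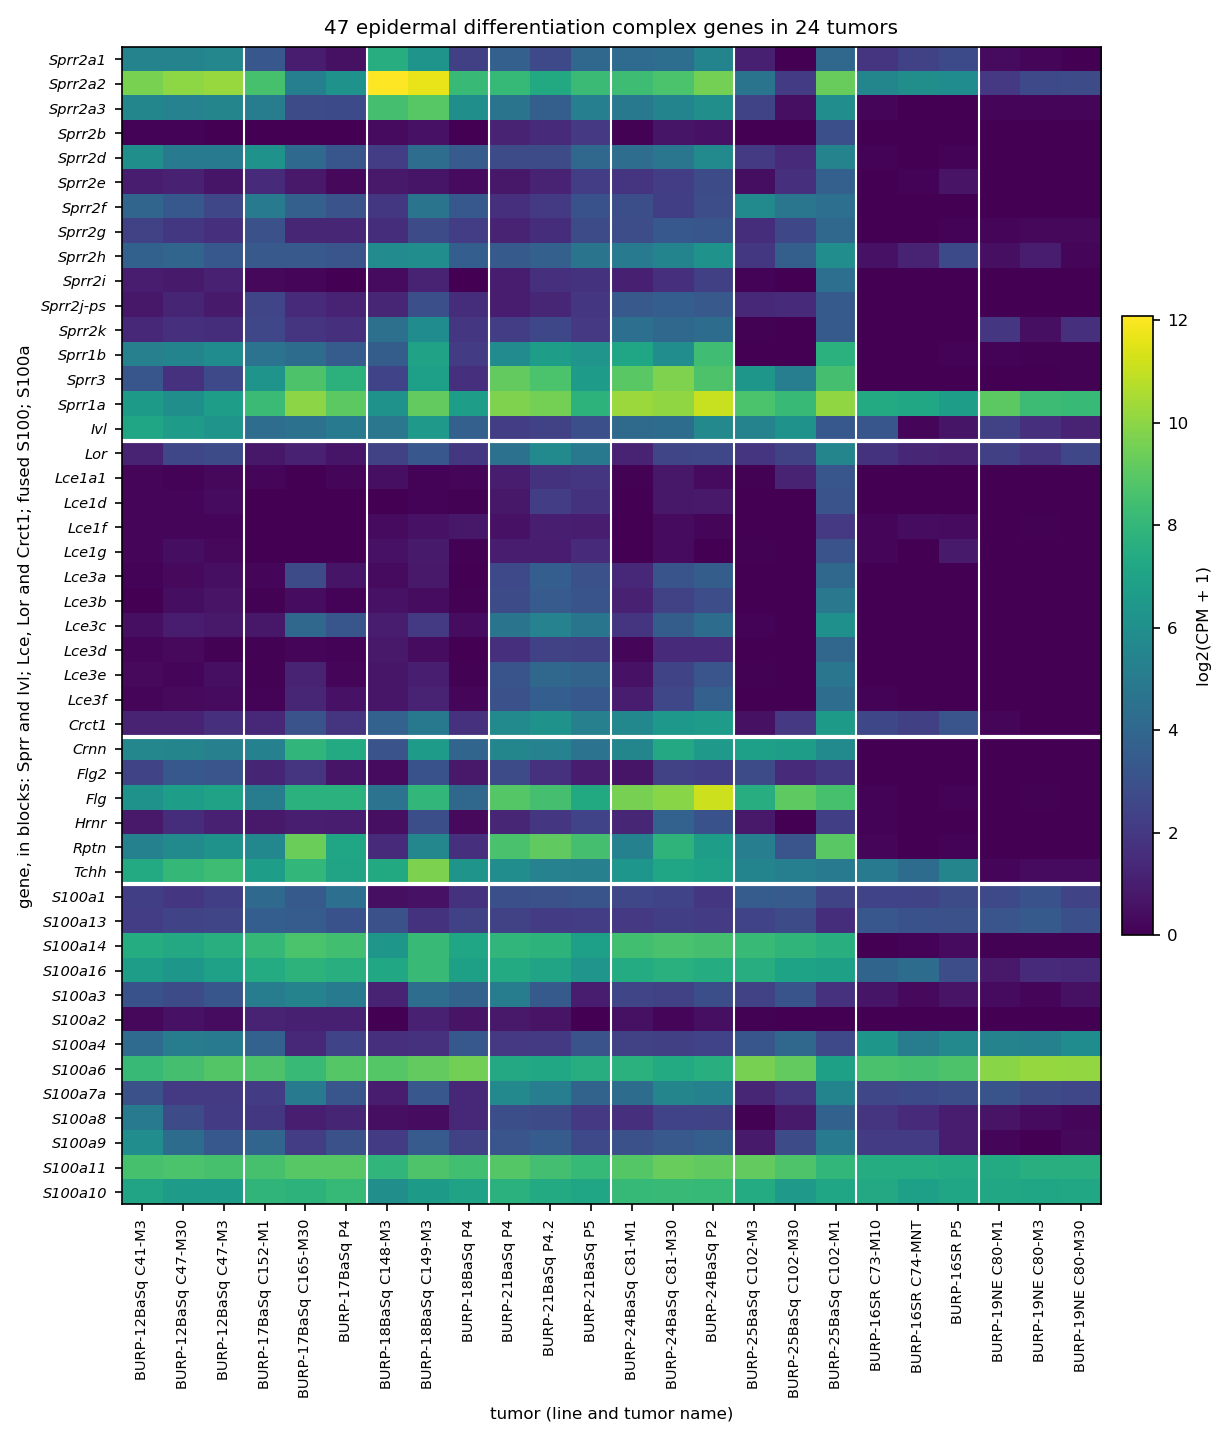
Level of the 47 members with a mean of at least 1 CPM in some line (rows) in each of the 24 tumors (columns), as log2(CPM + 1), with white lines between the lines and between the 4 groups of genes. Most rows are dark in BURP-16SR and BURP-19NE, whereas S100a6, S100a10 and S100a11 are bright in every tumor. The Lce3 rows are brighter in BURP-21BaSq, C102-M1 and C81-M30 and P2 of BURP-24BaSq than in most other Ba/Sq tumors.

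The region around the start site holds the letters that transcription factors read. RefSeq windows of 300 bases, 250 before and 50 after the start site, were at hand for 53 of the 62 members. The sequences of 5 members stand for the patterns met: 2 Sprr genes with high levels in Ba/Sq tumors, the envelope scaffold Ivl, the late gene Lce3b and the keratin-binding Flg. Each is read 5′ to 3′ on the strand of the gene (GRCm38.p6, RefSeq), and capitals mark motif matches. The motifs were searched on both strands, with TGANTCA for AP-1 and the letters TTGCNNAA for C/EBP. For Klf4 the motif was GGGTGTGG. The TATA box was searched as TATAAA. The positions are chr3:92485832-92486131 (minus strand) for Sprr1a, chr3:92338890-92339189 (plus) for Sprr2d, chr3:92573686-92573985 (minus) for Ivl, chr3:92932729-92933028 (plus) for Lce3b and chr3:93273296-93273595 (plus) for Flg.
Sprr1a: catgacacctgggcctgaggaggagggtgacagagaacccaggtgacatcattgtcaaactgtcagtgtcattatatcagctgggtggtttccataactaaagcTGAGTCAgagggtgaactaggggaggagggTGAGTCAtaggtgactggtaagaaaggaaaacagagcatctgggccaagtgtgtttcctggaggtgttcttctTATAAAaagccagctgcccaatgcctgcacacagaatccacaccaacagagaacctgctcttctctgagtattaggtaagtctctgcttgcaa
Sprr2d: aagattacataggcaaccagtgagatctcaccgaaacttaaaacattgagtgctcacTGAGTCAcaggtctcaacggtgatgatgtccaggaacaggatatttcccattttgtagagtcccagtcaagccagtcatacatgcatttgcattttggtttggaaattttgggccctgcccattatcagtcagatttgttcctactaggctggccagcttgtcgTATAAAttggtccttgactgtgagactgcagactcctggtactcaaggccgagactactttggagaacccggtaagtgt
Ivl: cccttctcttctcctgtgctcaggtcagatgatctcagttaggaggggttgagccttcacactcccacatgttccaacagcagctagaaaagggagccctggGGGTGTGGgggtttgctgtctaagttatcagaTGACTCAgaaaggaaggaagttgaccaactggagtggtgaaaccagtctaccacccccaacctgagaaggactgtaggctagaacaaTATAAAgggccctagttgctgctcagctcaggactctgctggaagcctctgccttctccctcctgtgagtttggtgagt
Lce3b: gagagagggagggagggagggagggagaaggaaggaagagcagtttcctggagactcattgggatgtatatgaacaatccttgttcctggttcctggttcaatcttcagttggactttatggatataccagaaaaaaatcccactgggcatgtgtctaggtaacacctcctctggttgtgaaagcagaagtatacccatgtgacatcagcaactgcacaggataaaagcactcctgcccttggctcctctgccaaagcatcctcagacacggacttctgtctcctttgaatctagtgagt
Flg: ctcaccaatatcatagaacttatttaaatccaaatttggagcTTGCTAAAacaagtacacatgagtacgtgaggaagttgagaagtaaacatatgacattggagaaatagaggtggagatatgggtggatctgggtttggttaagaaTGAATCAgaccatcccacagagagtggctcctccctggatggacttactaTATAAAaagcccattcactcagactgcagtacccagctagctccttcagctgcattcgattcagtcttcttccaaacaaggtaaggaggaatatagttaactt

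AP-1 is the dimer of Jun and Fos proteins, and its motif stood in 10 of the 15 Sprr and Ivl windows (66.7%) and 4 of the 6 fused S100 windows. It stood in 2 of 11 S100a genes and in 1 of 21 genes of the Lce group (4.76%), that of Lor. Over all members the share was 17 of 53 (32.1%), beside 8.97% of 27025 genes with such a window. The TATA box, at which the basal transcription machinery assembles, stood in 11 of 15 Sprr and Ivl genes (73.3%) and in 5 of 21 genes of the Lce group (23.8%), beside 15.7% of all genes. In the 7 Sprr2 genes with an AP-1 match the first such match began 193 to 198 bases before the start site and the TATA box 29 bases before it. C/EBP matched in 6 of 53 members (11.3%) and in 12.2% of all genes, a Grainyhead-like motif (AACCNGTT) in 3 of 53 (5.66%) and in 2.35%, and Klf4 in Ivl alone among the members and in 4.09% of all genes. The windows of Sprr2a1, Sprr2a2, Sprr2a3, Lce3b and Tchh held none of these motifs. These are matches of letters in a fixed window, not measured binding sites.

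**Figure D2:**
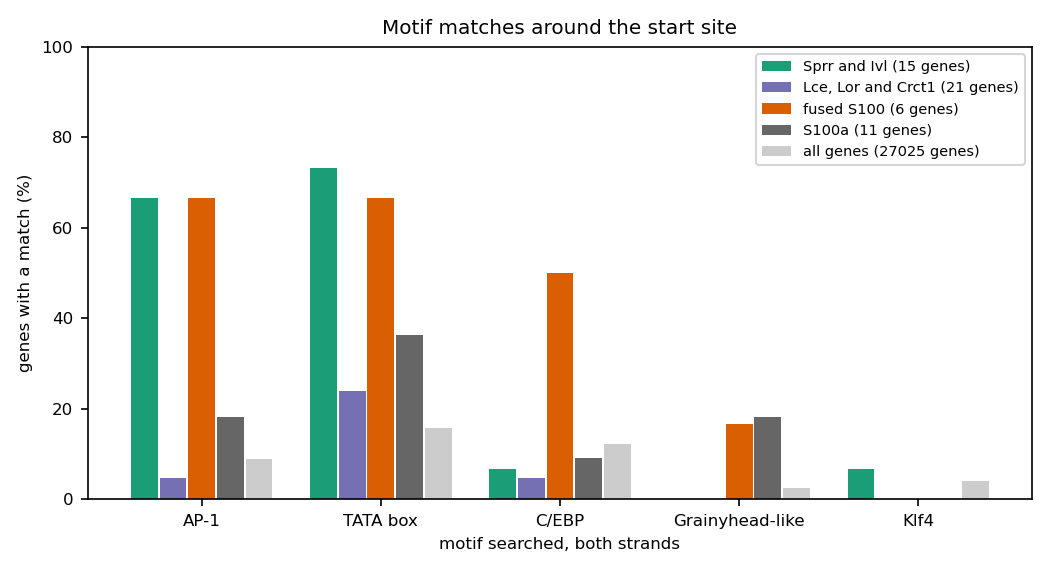
Share of genes (in percent) with at least 1 match to each of 5 motifs in the 300-base window around the start site, for the 4 groups of members and for all 27025 genes with a window. The AP-1 bars stand at 66.7% for Sprr and Ivl and for the fused S100 genes, and at 4.76% for Lce, Lor and Crct1, beside 8.97% for all genes.

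The first comparison asked how BURP-19NE, the neuroendocrine-like line, differs from the squamous lines. The fused S100 genes and most of the tested Sprr genes were lower in its 3 tumors than in the 18 Ba/Sq tumors, fewer of the Lce group passed, and S100a4 and S100a6 were higher. By edgeR's quasi-likelihood test with Benjamini-Hochberg adjustment over 21006 genes, calling a change at an adjusted p under 0.05 and more than 2-fold, 34 of 52 tested members fell (background: 15% of all genes), 2 rose (background: 9.32%) and 16 did not pass. The other 10 were too low to be tested. In 19 members every BURP-19NE tumor lay below every Ba/Sq tumor (8.14% of all genes), and in 2 every one lay above (9.84%). Only 16 of the 52 tested members reached 10 counts in a BURP-19NE tumor, so the other 36 passed the filter on low counts through the Ba/Sq tumors and could hardly differ in another direction. Of the 62 members, 34 had no count at all in BURP-19NE. The median log2 difference of the tested members was -7.12, or -4.35 with genes at 0 held at the bound that 3 counts allow, beside -0.14 over all genes.

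Among the fused S100 genes all 6 fell. Filaggrin (Flg), which packs keratin filaments and is broken down to the moisturizing factor of the skin, ranged over the Ba/Sq tumors from 15.6 to 2255 CPM with a median of 209 CPM. BURP-19NE held 1 count of it in 3 tumors. The log2 difference was -14.13 ± 2.36 (SE, adjusted p = 1.01e-04), and the ratio of the means was 25708 with a counting interval from 4614 to 1015400. Repetin (Rptn), an envelope precursor of the upper epidermis, ran from 1.70 to 650 CPM (median 62.5 CPM) in the Ba/Sq tumors and had no count in BURP-19NE, which is at least 1157-fold lower. Cornulin (Crnn), found in stratified squamous epithelium such as the oesophagus, ran from 7.44 to 244 CPM and had no count in BURP-19NE, at least 483-fold lower. Trichohyalin (Tchh), which cross-links keratin in the inner root sheath of hair, stood at 31.3 to 837 CPM in the Ba/Sq tumors and at 0.170, 0.263 and 0.272 CPM in BURP-19NE (log2 difference -9.38 ± 1.42, SE, adjusted p = 3.21e-05). No BURP-19NE tumor came near the Ba/Sq range in any of these 4 genes. The less abundant Flg2 and Hrnr, at no more than 9.06 and 12.7 CPM in any Ba/Sq tumor, had no count in BURP-19NE.

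Of the Sprr genes and Ivl, 13 of 16 tested fell. Sprr3, an abundant envelope precursor of internal squamous epithelia, ran from 2.19 to 842 CPM (median 107 CPM) in the Ba/Sq tumors against 1 count in BURP-19NE (log2 difference -13.36 ± 2.97, SE, adjusted p = 0.00160). Sprr2a2 stood at 2.97, 5.37 and 5.90 CPM in BURP-19NE and at 3.40 to 4307 CPM (median 347 CPM) in the Ba/Sq tumors (log2 difference -7.38 ± 1.92, SE, adjusted p = 0.00549). The ranges of Sprr2a2 overlapped through C102-M30. Sprr2d, with 1.70 to 70.1 CPM in the Ba/Sq tumors, had no count and was at least 148.5-fold lower, and Sprr2f was at least 85.5-fold lower. Involucrin stood at 4.08, 2.16 and 1.27 CPM in BURP-19NE and at 3.59 to 134 CPM in the Ba/Sq tumors (log2 difference -4.01 ± 1.13, SE, adjusted p = 0.00916). Its ranges overlapped because BURP-21BaSq was low. Sprr1a was the member of this group with a high level in every tumor, at 516, 307 and 278 CPM in BURP-19NE and 64.4 to 2102 CPM (median 460 CPM) in the Ba/Sq tumors. Its log2 difference of -0.70 ± 0.85 (SE, adjusted p = 0.553) did not pass. Sprr2k and Sprr2b did not pass either, at log2 differences of -2.43 and -7.05. The latter is no bound, since Sprr2b had no count in BURP-19NE and was at least 5.19-fold lower.

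Of the Lce group, 8 of 17 tested fell: the 6 Lce3 genes, Lce1a1 and Crct1. Crct1, a small cysteine-rich protein encoded between the Lce genes, stood at 0.440 to 103 CPM in the Ba/Sq tumors and at 0.170, 0 and 0 CPM in BURP-19NE (log2 difference -8.84 ± 2.42, SE, adjusted p = 0.00764). The 6 Lce3 genes, which skin induces on injury, had no count in BURP-19NE and summed to 0 to 169 CPM in the Ba/Sq tumors. Lce3c was at least 76.5-fold lower, although C102-M30, a shallow Ba/Sq tumor, also had no count of it and so the ranges were not apart. Loricrin, in skin the main protein of the envelope, did not pass. It stood at 3.82, 2.63 and 4.99 CPM in BURP-19NE and at 0.594 to 54.0 CPM (median 4.53 CPM) in the Ba/Sq tumors, with a log2 difference of -1.52 ± 1.22 (SE, adjusted p = 0.353).

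The S100a genes divided, with 7 of 13 tested lower and 2 higher. S100a14, an epithelial S100 protein, showed the contrast most sharply, with 81.9 to 399 CPM (median 240 CPM) in the Ba/Sq tumors and 0.0425, 0.0526 and 0.0454 CPM, 1 count each, in BURP-19NE. Its log2 difference was -12.16 ± 0.74 (SE, adjusted p = 7.29e-11), and the ratio of the means was 5268 with a counting interval from 1803 to 25547. S100a16 fell by 6.87 ± 0.47 (SE) on the log2 scale (adjusted p = 4.77e-10) to 0.764, 1.68 and 1.498 CPM. S100a9, which with S100a8 forms calprotectin of neutrophils and stressed keratinocytes, fell by 6.75 ± 1.299 (SE, adjusted p = 4.33e-04). S100a11, a transglutaminase substrate made in many cell types, fell by 1.16 ± 0.24 (SE, adjusted p = 9.04e-04), from 243 to 607 CPM in the Ba/Sq tumors to 167, 193 and 194 CPM.

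In the other direction, S100a4, known from fibroblasts and motile cells, stood at 41.7, 39.0 and 57.8 CPM in BURP-19NE against 1.57 to 33.6 CPM (median 4.89 CPM) in the Ba/Sq tumors. All BURP-19NE tumors were above all Ba/Sq tumors (log2 difference 2.31 ± 0.62, SE, adjusted p = 0.00664). S100a6, calcyclin, stood at 973, 1147 and 1111 CPM against 116 to 782 CPM (log2 difference 1.56 ± 0.42, SE, adjusted p = 0.00677), again with no overlap. S100a10, S100a1, S100a13 and S100a7a did not pass, with log2 differences of -0.27, -0.20, 0.75 and -1.48. The fibroblast marker list summed to 1184 to 2053 CPM in BURP-19NE, within the 242 to 10417 CPM of the Ba/Sq tumors, and the macrophage list to 202 to 280 CPM, within 31.1 to 828 CPM. All 10 genes of each list had counts in both groups. Of 9 tested skeletal muscle markers 8 were higher in BURP-19NE (background: 9.32%), with sums of 4.37 to 693 CPM, and their part was not tested.

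With each of the 21 tumors left out in turn, 25 of the 36 calls held each time. The call was lost without any 1 of the BURP-19NE tumors for S100a8, Sprr2i, Lce1a1 and all 6 Lce3 genes, without C80-M1 or C80-M3 for S100a2 and without C80-M3 or C80-M30 for Ivl. Lce3b and Lce3d also lost it without some Ba/Sq tumors. With counts summed per line, 1 line against 6, 13 of 56 tested members were lower (background: 2.39%) and none higher (background: 1.96%), with 34 at an unadjusted p under 0.05. The 13 were S100a14, S100a16, S100a9, Sprr2d, Sprr2f, Sprr2g, Sprr2j-ps, Sprr1b, Crnn, Flg2, Hrnr, Rptn and Tchh. S100a4 and S100a6 did not pass in that fit (edgeR's adjusted p = 0.168 and 0.191).

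**Figure D3:**
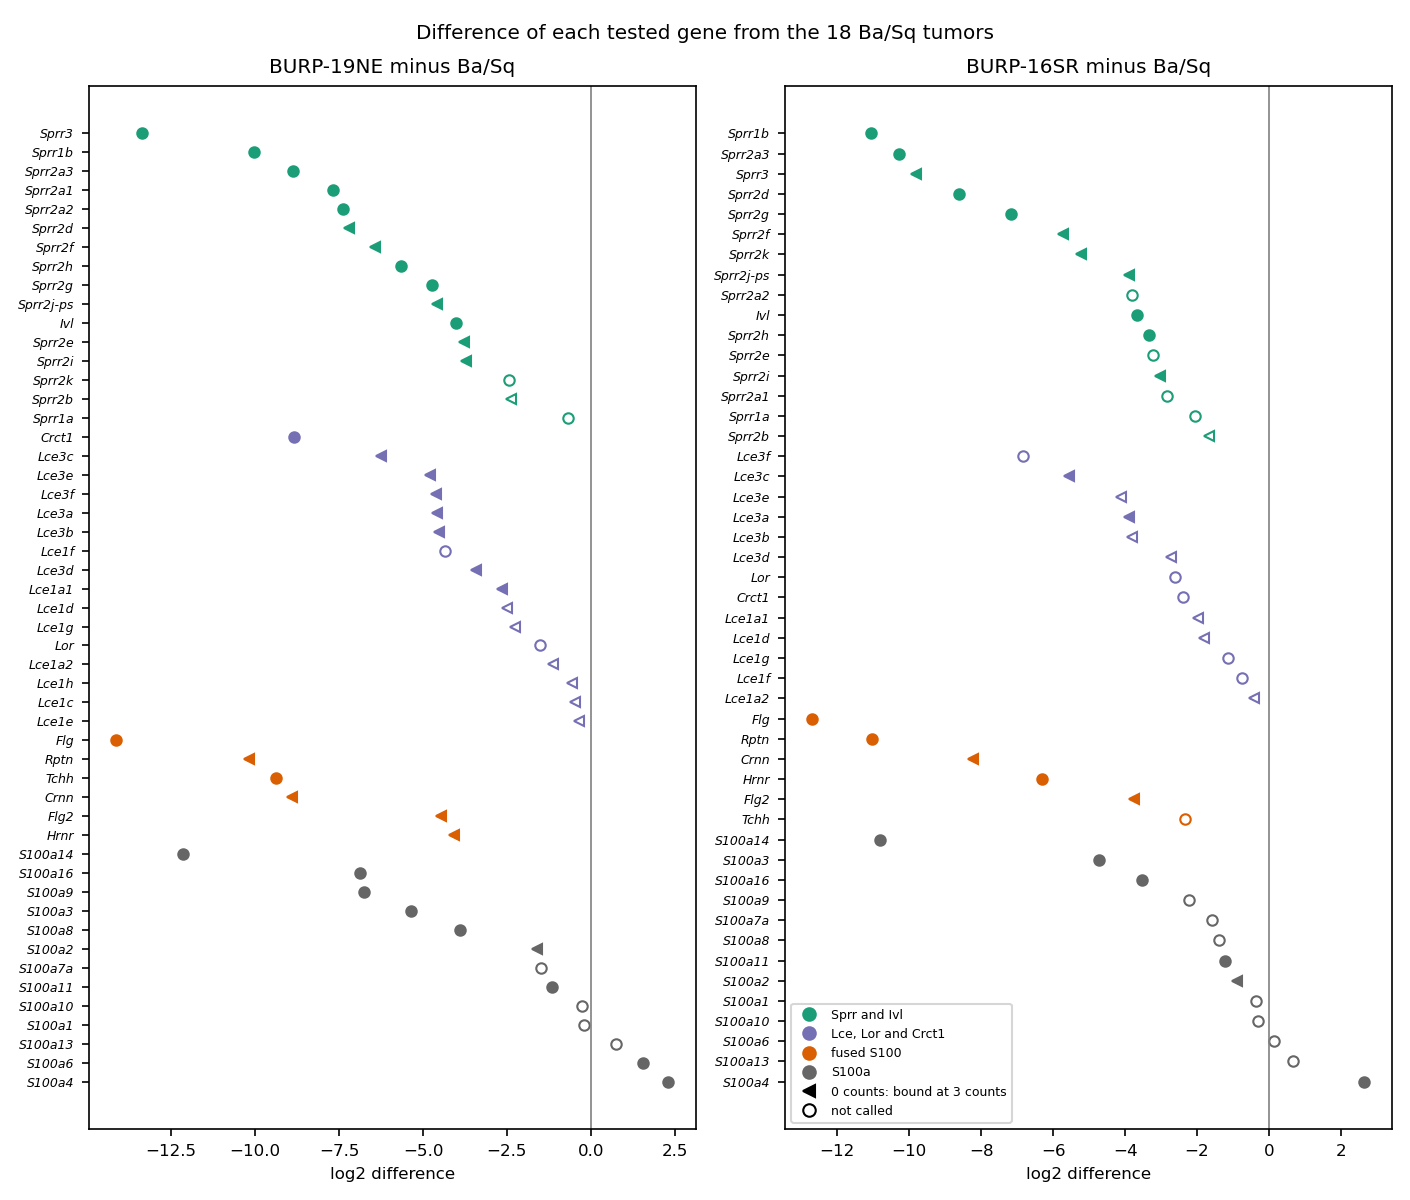
Log2 difference of each member from the mean of the 18 Ba/Sq tumors, for BURP-19NE (left, 51 members) and BURP-16SR (right, 48 members), with filled symbols for members past the threshold. Triangles mark members with no count in the line, drawn at the bound that 3 counts allow, and circles are fitted values, which for members with 1 to 3 counts are no bound. Among the filled symbols, S100a4 lies to the right of 0 in both panels and S100a6 in the left one.

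BURP-16SR, the stroma-rich line, was compared with the same 18 Ba/Sq tumors, so the results for both lines share their controls. In it 23 of 51 tested members fell (background: 8.62% of 21017 genes), and S100a4 alone rose (background: 10.5%). All 3 BURP-16SR tumors were below all Ba/Sq tumors in 14 members (5.28% of all genes) and above them in 1 (6.1%). As before, 32 of the 51 did not reach 10 counts in a BURP-16SR tumor and were tested through the Ba/Sq tumors, and 29 of the 62 had no count in the line. The median log2 difference was -5.74, or -3.28 with genes at 0 held at their bound, beside -0.03 over all genes.

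Sprr3 had no count in BURP-16SR and was at least 902-fold lower, Crnn likewise at least 297-fold lower. Flg kept 2 counts in the 3 tumors, a ratio of 7707 with a counting interval from 2134 to 63643 (log2 difference -12.69 ± 2.23, SE, adjusted p = 2.41e-04). Rptn kept 3 counts, a ratio of 2359 with an interval from 807 to 11437. S100a14 stood at 0, 0.0782 and 0.281 CPM, a log2 difference of -10.80 ± 0.80 (SE, adjusted p = 1.43e-09), and Sprr1b at 0, 0 and 0.0701 CPM. These genes were thus at or near 0 in all BURP-16SR tumors. The Sprr1b ranges still overlapped, because C102-M3 and C102-M30 also had no count of it. S100a16 fell by 3.54 ± 0.42 (SE, adjusted p = 2.28e-06) and remained at 13.6, 18.5 and 6.31 CPM.

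Tchh, Sprr2a2 and Crct1, which fell in BURP-19NE, did not pass in BURP-16SR. Tchh stood at 30.1, 18.5 and 44.3 CPM, with a log2 difference of -2.34 ± 0.92 (SE, adjusted p = 0.0670). Only P5, at 44.3 CPM, overlapped the Ba/Sq tumors, the lowest of which was at 31.3 CPM. Sprr2a2 stood at 45.3, 61.0 and 57.7 CPM, with a log2 difference of -3.82 ± 1.56 (SE, adjusted p = 0.0763). Crct1 stood at 5.14, 3.91 and 8.14 CPM, with a log2 difference of -2.40 ± 1.502 (SE, adjusted p = 0.255). Sprr1a and Lor passed in neither comparison. Sprr1a, at 165.1, 147 and 105 CPM, differed by -2.05 ± 0.95 (SE, adjusted p = 0.118), and Lor, at 2.40, 1.49 and 1.26 CPM, by -2.62 ± 1.35 (SE, adjusted p = 0.161). Of the Lce group 2 of 16 tested passed, Lce3a and Lce3c. S100a6 stood at 389, 361 and 419 CPM, inside the Ba/Sq range, with a log2 difference of 0.13.

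S100a4 stood at 84.2, 34.1 and 51.1 CPM in BURP-16SR, above the highest Ba/Sq tumor at 33.6 CPM (log2 difference 2.65 ± 0.61, SE, adjusted p = 0.00296). The fibroblast list summed to 639 to 20989 CPM in the 3 BURP-16SR tumors. By the same test, 4 of its 10 genes were higher than in the Ba/Sq tumors (background: 10.5%). The part of these cells in the S100a4 level was not tested. With each tumor left out in turn, 18 of the 24 calls held each time. S100a2 and Lce3c lost their call without any 1 of the BURP-16SR tumors, Lce3a and Sprr2i did so and also without some Ba/Sq tumors, Sprr2h without C73-M10 or C74-MNT and Ivl without C74-MNT or P5. DESeq2 called 35 members lower in BURP-16SR (background: 11.2%). With counts summed per line, 1 line against 6, 8 of 56 tested members were lower (background: 1.25%) and none higher (background: 2.08%), with 28 at an unadjusted p under 0.05. The 8 were S100a14, S100a16, Sprr2d, Sprr2f, Sprr2g, Sprr1b, Crnn and Flg2. S100a4 did not pass in that fit (edgeR's adjusted p = 0.174).

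Set against each other, BURP-16SR and BURP-19NE differed in 9 of the 18 members that could be tested. Higher in BURP-16SR were 7 (background: 14.8% of 17556 genes) and lower were 2 (background: 8.85%). Of the 18, 7 had every BURP-16SR tumor above every BURP-19NE tumor (23.6% of all genes) and 3 had every one below (28.2%). Tchh had the largest difference, 7.08 ± 0.44 (SE) on the log2 scale (adjusted p = 4.46e-04), followed by Crct1 with 6.48 ± 0.91 (adjusted p = 0.00349), Sprr2a1 with 4.91 ± 0.83 (adjusted p = 0.00634) and S100a9 with 4.56 ± 0.85 (adjusted p = 0.00866). Sprr2a2 was higher by 3.61 ± 0.31 (adjusted p = 9.20e-04), and S100a16 and S100a8 passed as well. S100a6 was lower in BURP-16SR by 1.38 ± 0.15 (log2 difference -1.38, adjusted p = 0.00173) and Sprr1a was too, with a log2 difference of -1.302 ± 0.30 (SE, adjusted p = 0.0176). S100a11 and S100a10 differed by -0.00 ± 0.13 and 0.01 ± 0.16 (SE) on that scale.

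Some markers of other cells also differed between these 2 lines. Krt27, a keratin of the hair root sheath where Tchh also acts, stood at 5.74, 7.51 and 18.9 CPM in BURP-16SR. It had no count in any tumor of the other lines, while Tchh stood at 31.3 to 837 CPM in the Ba/Sq tumors. Of 7 hair and nail markers tested against the Ba/Sq tumors, 1 was higher in BURP-16SR (background: 10.5%) and 1 lower (background: 8.62%). The 19 hair and nail markers found in the table summed to 15.4 to 36.3 CPM in BURP-16SR, with 5 of them at 0 in all its tumors, and to 0.9996 to 1.82 CPM in BURP-19NE, with 13 at 0. The 10 neutrophil markers summed to 9.68 to 19.8 CPM in BURP-16SR, with 2 at 0, and to 1.63 to 2.97 CPM in BURP-19NE, with 3 at 0. Among them Csf3r stood at 8.99, 14.8 and 2.66 CPM against 2.21, 1.53 and 2.18 CPM. Their part in the levels of Tchh, S100a8 and S100a9 was not tested. The call for S100a8 (2.52 ± 0.63, SE, adjusted p = 0.0233) was lost without C73-M10, C80-M3 or C80-M30, and the other 8 calls held with each tumor left out.

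The genes that work with the complex were followed in lists chosen with earlier results of these data known. The 26 tested partners in cornification are transglutaminases, lipid-barrier enzymes, keratins of the upper layers and corneodesmosome proteins. Of these, 24 fell in BURP-19NE (background: 15% of all genes) and 21 in BURP-16SR (background: 8.62%). The largest fitted changes were in Cnfn, Spink5 and Krt1 in BURP-19NE and in Spink5, Krt1 and Cyp4f39 in BURP-16SR. Spink5, Krt1, Casp14, Sdr9c7, Krt77 and Grhl3 had no count in either line. Cnfn, Tgm5, Krtdap, Alox12b and Abca12 had none in BURP-19NE, and Cyp4f39 had none in BURP-16SR. In those lines these genes passed the filter through the Ba/Sq tumors and could hardly differ in another direction. Their fitted sizes there are no bound. Of 26 regulators, 18 fell in BURP-19NE (background: 15%), led by Grhl3, Elf3 and Tfap2c, and Satb1 rose (background: 9.32%). In BURP-16SR 12 regulators fell (background: 8.62%), and Satb1 and Fosl1 rose (background: 10.5%). Fosl1, a Fos protein of AP-1, stood at 128, 60.7 and 132 CPM in BURP-16SR and at 3.37 to 47.8 CPM in the Ba/Sq tumors. Of 5 other genes of the locus that were tested, among them Kprp and Tchhl1, 5 fell in BURP-19NE (background: 15%). In BURP-16SR 4 of them fell (background: 8.62%). Between the 2 lines, 5 partners were higher in BURP-16SR (background: 14.8%) and none lower (background: 8.85%), the largest being Aloxe3, Cdsn and Ppl. No call over these lists was adjusted for the list alone.

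The 6 Ba/Sq lines were then compared with each other, to ask how even the complex is among squamous tumors. The S100a genes varied least, with a fitted median of 2.33 between the highest and the lowest line on the log2 scale, and the Lce group most, with 5.62, or 4.96 with lines at 0 counts held at the bound that 3 counts per tumor allow. By an F test over the lines, 32 of 52 tested members differed (background: 39.4% of 20523 genes), and the highest line exceeded the lowest by a fitted median of 4.06 on the log2 scale, or 3.30 with bounds, beside 1.29 over all genes. Passing were 14 of 17 genes of the Lce group, 11 of 16 Sprr genes and Ivl, 2 of 6 fused S100 genes (Flg and Tchh) and 5 of 13 S100a genes. The largest fitted sizes were those of Lce1g (8.64, adjusted p = 0.0241), Lce1d (8.59, adjusted p = 0.0210), Sprr2b (8.43, adjusted p = 0.0215), Lce1f (7.42, adjusted p = 0.0337) and Lce1e (6.82, adjusted p = 0.0217). BURP-17BaSq had no count of any of these 5, so the fitted sizes are no bound. Their mean in BURP-25BaSq, the highest line, was at least 10.3-fold higher than in BURP-17BaSq for Lce1g, 9.90-fold for Lce1d, 8.85-fold for Sprr2b, 4.12-fold for Lce1f and 2.70-fold for Lce1e. All had their highest level in C102-M1 and no more than 7.597 CPM in any tumor. Among members with counts in every line the largest were Sprr3 (6.74, adjusted p = 0.0131) and Lce3b (5.89, adjusted p = 0.0171). S100a11 did not pass, with a difference of 0.65 (adjusted p = 0.328) and levels between 243 and 607 CPM, nor did S100a14 and S100a16, at 1.04 and 0.90. Without C102-M1, 43 members differed (background: 45.7% of 21305 genes). With label style (a code like C41-M3, or a passage) added to the fit, 24 of 54 did (background: 35.2% of 21337 genes). With each tumor left out in turn, 19 of the 32 calls held each time, and the other 13 were Flg (lost without P2 of BURP-24BaSq), S100a13, Sprr2a1, Sprr2e, Sprr2f, Sprr2i, Sprr2k, Lce1c, Lce1f, Lce1h, Lce3d, Lce3e and Lce3f.

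**Figure D4:**
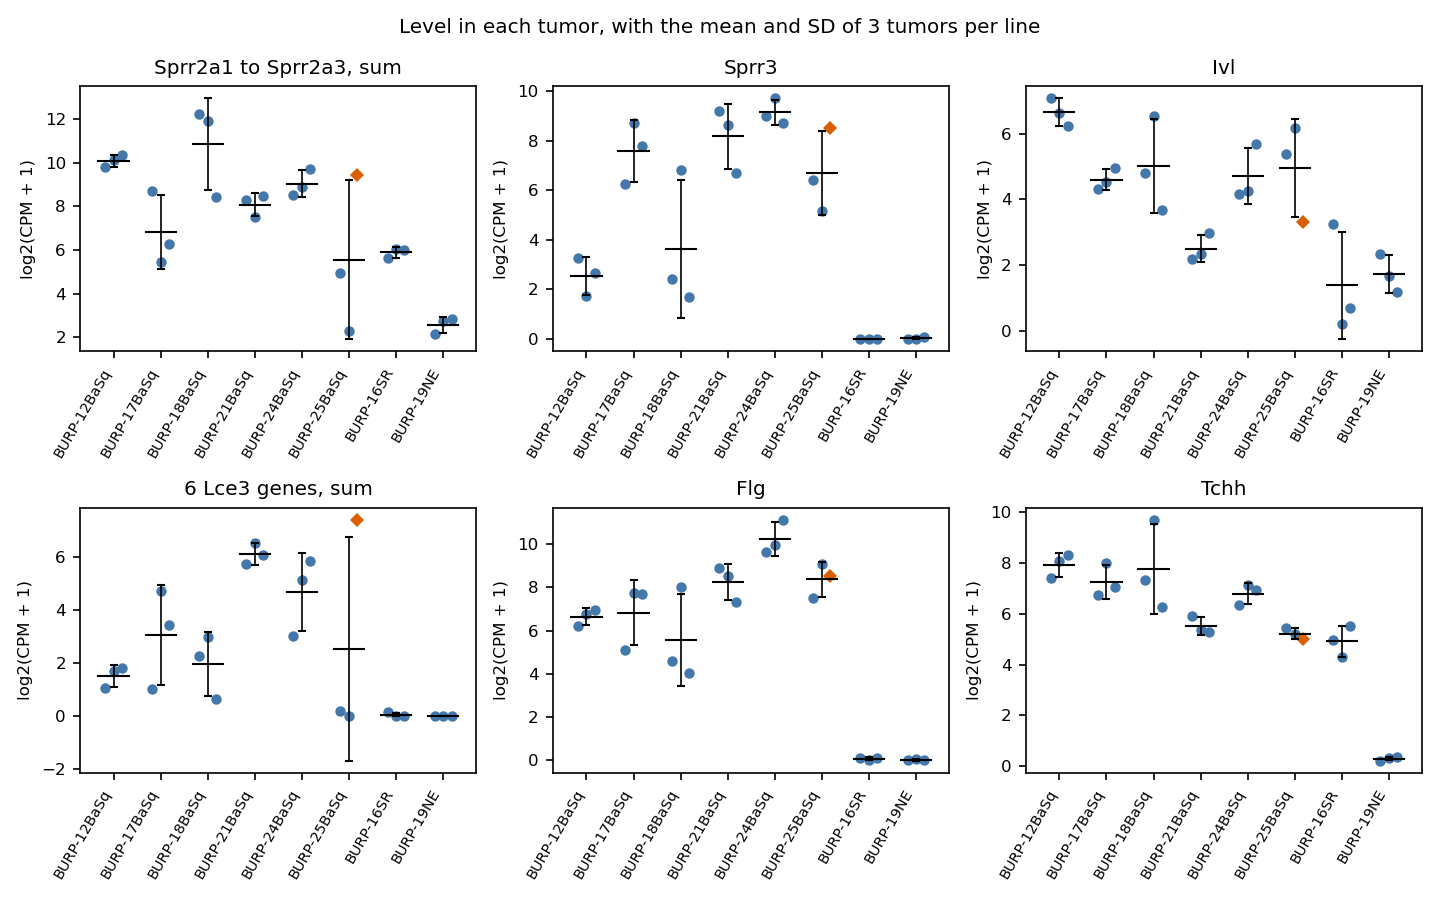
Level in each tumor as log2(CPM + 1) for the sum of Sprr2a1 to Sprr2a3, Sprr3, Ivl, the sum of the 6 Lce3 genes, Flg and Tchh, by line. Points are tumors, bars the mean and SD of 3 tumors, and the orange diamond is C102-M1. Sprr2a is highest in BURP-18BaSq and BURP-12BaSq, Flg in BURP-24BaSq, and BURP-21BaSq has less Ivl than any other squamous line.

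Each Ba/Sq line was also set against the mean of the other 5. BURP-12BaSq had high involucrin and low Sprr1a and Sprr3. Ivl stood at 134, 98.6 and 74.2 CPM in its 3 tumors and at 3.59 to 91.5 CPM in those of the other Ba/Sq lines, with 1 tumor of BURP-18BaSq reaching into its range (log2 difference 2.21 ± 0.47, SE, adjusted p = 0.00430). Sprr3 stood at 8.43, 2.31 and 5.25 CPM, beside 2.19 to 842 CPM elsewhere (log2 difference -5.22 ± 1.2995, SE, adjusted p = 0.0110). Sprr1a, at 96.0, 64.4 and 108 CPM, was lower by 2.74 ± 0.70 (log2 difference -2.74, SE, adjusted p = 0.0128). In all, 5 members were higher (background: 5.23%), with S100a4, S100a8, S100a9 and Tchh beside Ivl, and 4 lower (background: 5.87%), with Crct1 and Sprr2j-ps beside Sprr3 and Sprr1a. S100a8 and S100a9 were highest in C41-M3, at 29.2 and 60.3 CPM, and none of 5 tested neutrophil markers passed in this line. Only S100a4 (2.30 ± 0.43, SE, adjusted p = 0.00206) and Ivl held their call with each tumor left out. Without C41-M3, C47-M30 or C47-M3, 3, 2 and 4 members passed, and 5 passed without P4.2 or P5 of BURP-21BaSq or any 1 BURP-24BaSq tumor.

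BURP-18BaSq had the highest Sprr2a levels. Sprr2a2 stood at 4307, 3220 and 277 CPM in C148-M3, C149-M3 and P4, and the tumors of the other Ba/Sq lines lay between 3.40 and 1201 CPM, so 2 of its 3 tumors were above all others. Sprr2a3 stood at 359, 489 and 64.0 CPM, all above the other lines (log2 difference 3.52 ± 0.63, SE, adjusted p = 8.81e-04), and Sprr2a2 and Sprr2a1 differed by 3.02 ± 0.80 and 2.90 ± 0.76. The sum of the 3 genes, which does not depend on how reads were divided among them, was 4849, 3784 and 344 CPM. Tchh was higher by 1.94 ± 0.42 (SE, adjusted p = 0.00323), at 159, 837 and 75.9 CPM. The other Ba/Sq lines lay between 31.3 and 316 CPM, so only C149-M3 was above them, and without C149-M3 the call was lost. In the 3 BURP-18BaSq tumors Padi3, an enzyme that modifies trichohyalin in hair, stood at 210, 28.6 and 115 CPM. It was no higher than 13.3 CPM in any other tumor, and its part in the Tchh result was not tested. S100a1, at 0.392, 0.502 and 2.35 CPM, was lower by 2.51 ± 0.46 (log2 difference -2.51, SE, adjusted p = 0.00108). In all, 6 members were higher (background: 9.74%) and 1 lower (background: 5.77%). Sprr2a3 and S100a1 held with each tumor left out, whereas without C148-M3 4 members passed, Sprr2a1 and Sprr2a2 no longer among them. Without C149-M3 3 were higher (background: 8.14%), Sprr2a1 to Sprr2a3, and 7 lower (background: 5.23%), which were S100a1, S100a14, Sprr3, Sprr1a, Crnn, Flg and Rptn.

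BURP-24BaSq had the most filaggrin. Flg stood at 786, 980 and 2255 CPM, above the 15.6 to 537 CPM of all other Ba/Sq tumors (log2 difference 2.85 ± 0.58, SE, adjusted p = 0.00408). Sprr3 at 503, 842 and 420 CPM and Sprr1a at 1231, 1064 and 2102 CPM were higher by 2.87 ± 0.75 and 2.04 ± 0.49 (SE), and each overlapped 1 or more tumors of other lines. With Crct1 and Sprr2j-ps, 5 members were higher (background: 5.46%) and none lower (background: 2.33%; 14 members at an unadjusted p under 0.05 in either direction). Of the 26 partners, 11 were higher in this line (background: 5.46%). Without C81-M30 or P2, 2 members passed. Without C102-M1 19 were higher (background: 6.69%) and S100a6 lower (background: 2.5%), with Sprr1b, at 134, 59.4 and 327 CPM, having the largest fitted difference (4.56 ± 0.83, SE, adjusted p = 0.00239). That size is no bound, since C102-M3 and C102-M30 then stand for BURP-25BaSq and had no count of Sprr1b. In BURP-12BaSq, 17BaSq, 18BaSq and 21BaSq it ran from 3.40 to 123 CPM.

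BURP-17BaSq stood apart in 4 of 13 tested S100a genes. S100a1 stood at 16.5, 9.85 and 20.3 CPM against 0.392 to 10.3 CPM elsewhere in Ba/Sq tumors (log2 difference 1.97 ± 0.32, SE, adjusted p = 0.00181), with C165-M30 inside that range. S100a13 stood at 11.4, 10.5 and 7.33 CPM, all above the others (1.298 ± 0.27, SE, adjusted p = 0.00724). S100a3 and S100a2 were also higher, making 4 (background: 4.58%), and Lor was lower (background: 1.6%), at 0.735, 1.16 and 0.594 CPM, below every other Ba/Sq tumor (log2 difference -3.41 ± 0.89, SE, adjusted p = 0.0230). The calls of S100a1 and S100a13 held with each tumor left out. S100a3 and Lor lost theirs without any 1 tumor of the line. The call of S100a2, at no more than 1.24 CPM in any tumor, was lost in 14 of 18 such fits. Without any 1 tumor of the line 2 members passed, and without C102-M3 10 did. All 6 tested adipocyte markers and 3 of 10 fibroblast markers were also higher in this line (background: 4.58%). The adipocyte signal was that of C152-M1. Adipoq, the fat-cell hormone adiponectin, stood at 33.7 CPM in C152-M1 and at 0 in C165-M30 and P4. The collagen gene Col1a1 stood at 3373, 141 and 1287 CPM. Their part in the S100a levels was not tested.

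In BURP-21BaSq, Lor RNA was high and Ivl RNA low. Lor stood at 21.7, 54.0 and 28.6 CPM, above all Ba/Sq tumors but C102-M1 with its 44.1 CPM (log2 difference 3.10 ± 0.56, SE, adjusted p = 0.00922). Ivl stood at 3.59, 4.06 and 6.81 CPM, below every other Ba/Sq tumor (log2 difference -3.10 ± 0.69, SE, adjusted p = 0.0234). As labelled, 2 members were higher (background: 1.81%) and 1 lower (background: 1.05%). The Ivl call was lost without any 1 tumor of the line and the Lor call without P4.2. With C102-M1 left out, 23 members were higher (background: 4.27%) and 2 lower (background: 2.26%). Among the former were all 6 Lce3 genes, 9 Lce1 genes, Lor, Crct1, Rptn and Sprr1b. Largest then were Lce1d (5.54 ± 0.76, SE, adjusted p = 0.00126), Sprr2b (5.42 ± 0.77), Lce3b (5.32 ± 0.67), Lce3e (4.87 ± 0.69) and Lce3f (4.76 ± 0.73). These fitted sizes are no bound, since C102-M3 and C102-M30 together then stand for BURP-25BaSq with 1 count of Lce3e and none of the other 4 genes, and BURP-17BaSq had none of Lce1d and Sprr2b. The 6 Lce3 genes summed to 51.9, 92.0 and 65.97 CPM in BURP-21BaSq, above all other Ba/Sq tumors except C102-M1 and P2 of BURP-24BaSq, which was at 56.5 CPM. Without P4, P4.2 or P5 of the line 1, 0 and 1 members passed, without C149-M3 5 and without C102-M3 11. All 3 BURP-21BaSq tumors were labelled by passage, and with label style added to the fit no member passed (background: 0% higher and 0% lower; 11 members at an unadjusted p under 0.05).

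The tumors labelled BURP-25BaSq differed among themselves, and the label of C102-M1 is in doubt, since over other genes this tumor was unlike the rest of its line (Pearson's r across genes of -0.246) and like BURP-21BaSq (0.677). As labelled, 10 members were higher (background: 2.05%) and none lower (background: 0.541%; 23 members at an unadjusted p under 0.05 in either direction), led by Lce1g (4.22 ± 0.97, SE, adjusted p = 0.0323), Lce1d, Lce1e and Sprr2b. Since lines at or near 0 counts enter these fitted sizes, they are no bound. In 9 of the 10 the highest tumor of the line was C102-M1. The exception was Sprr2f, at 20.1 CPM in C102-M1, 53.0 CPM in C102-M3 and 25.9 CPM in C102-M30. C102-M1 was above all 15 tumors of the other Ba/Sq lines in 19 of the 21 Lce genes, while C102-M3 and C102-M30 had no count in 15 of the 21. The Lce3 sum was 169 CPM in C102-M1, 0.132 CPM in C102-M3 and 0 in C102-M30, and Sprr1b stood at 208, 0 and 0 CPM. Crct1 followed with 95.4, 0.440 and 2.98 CPM. Ivl ran the other way, with 8.88 CPM in C102-M1, 41.01 in C102-M3 and 70.6 in C102-M30. Flg, at 372, 180 and 537 CPM, and Crnn, at 52.2, 113 and 107 CPM, did not separate C102-M1 in this way. The shallow depth of C102-M30 cannot show a level under 1.28 CPM, but C102-M3 had 4 counts over the 14 Lce1 genes at full depth. Krt10, a keratin of the spinous layer, was at 937 and 491 CPM in C102-M3 and C102-M30 and at 4.19 CPM in C102-M1.

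Without C102-M1, 6 members were lower in BURP-25BaSq (background: 3.14%), which were Sprr1b, Sprr2k, Lce3c, Sprr2a2, Sprr2a3 and Crct1, and S100a6 (1.19 ± 0.17, SE, adjusted p = 6.64e-04) and Sprr2f (2.26 ± 0.53) were higher (background: 4.46%). Sprr2a2 stood at 23.7 CPM in C102-M3 and 3.40 CPM in C102-M30. Neither tumor overlapped the other Ba/Sq lines for it, and the level in C102-M30 rests on 8 counts. Leaving out other tumors also moved the count as labelled, to 2 without C47-M3 or P2 of BURP-24BaSq, to 3 without C47-M30, C81-M1, C102-M30 or P4.2 of BURP-21BaSq, to 4 without C41-M3, P4 of BURP-17BaSq or P4 of BURP-21BaSq, and to 5 without C148-M3, C81-M30, C152-M1 or P5 of BURP-21BaSq. With label style added to the fit no member passed (background: 1.17% higher and 0.534% lower; 21 members at an unadjusted p under 0.05).

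**Figure D5:**
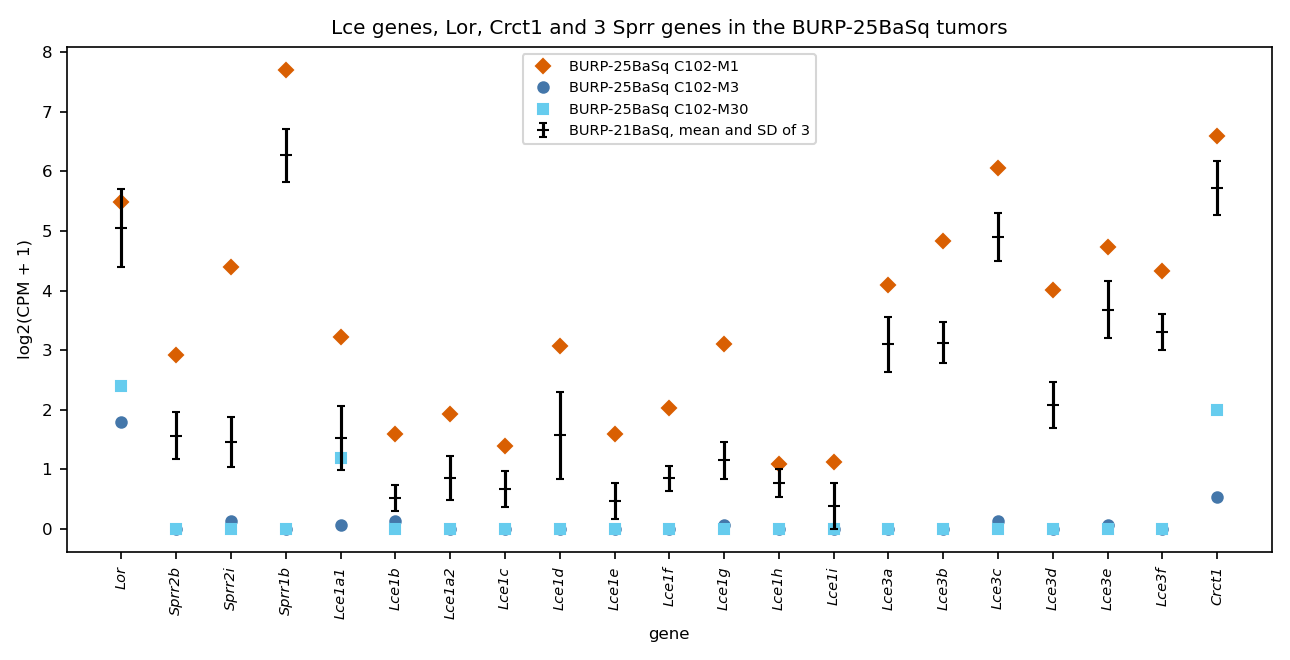
Level as log2(CPM + 1) of Lce genes, Lor, Crct1 and 3 Sprr genes with at least 1 CPM in some Ba/Sq tumor, in the 3 BURP-25BaSq tumors (symbols) and as mean and SD of the 3 BURP-21BaSq tumors (black). C102-M1 lies well above C102-M3 and C102-M30 in nearly every gene, as in Lce3b at 27.4 CPM against 0 in both.

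Other lists varied among the lines too. Of 26 partners, 19 differed (background: 39.4% of all genes), the largest being Tgm3, Krt10 and Spink5. Transglutaminase 3 (Tgm3), which cross-links envelope proteins, stood at 17.2, 39.1 and 37.1 CPM in BURP-21BaSq, at 56.5 CPM in C102-M1 and at no more than 3.18 CPM in any other Ba/Sq tumor. Krt10 stood at 87.6, 241 and 265 CPM in BURP-12BaSq. Of the 26 regulators 15 differed, and of the 5 other genes of the locus 3 did (background for both: 39.4%).

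The last comparison set the 3 male against the 3 female Ba/Sq lines, with the counts of each line summed, since sex belongs to the donor. No member passed by edgeR's quasi-likelihood test, and neither did any of the 21658 genes (background: 0% higher and 0% lower in male lines), although 22 of 49 tested members had an unadjusted p under 0.05, beside 1387 of all genes. The median log2 difference, male minus female, was -1.21 over the tested members and 0.04 over all genes. The smallest adjusted p was 0.0938, for Lce3f (log2 difference -4.13 ± 0.47, SE) and Lce3e (-4.73 ± 0.54), followed by 0.124 for Lce3b (-5.10 ± 0.62). The 6 Lce3 genes summed to 0.548 to 24.9 CPM in the 9 male tumors and to 0 to 169 CPM in the 9 female tumors. Of the female tumors, 6 of 9 were above every male tumor, 1 (C81-M1, at 7.01 CPM) was within the male range, and 2 (C102-M3 and C102-M30) were below it.

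The count depended on the test. DESeq2 on the same sums called 15 members higher in female lines (background: 0.734%) and 1 higher in male lines (background: 0.337%). With tumors as units, which counts the 3 tumors of a line as separate, edgeR called 4 higher in female lines (background: 1.22%) and 1 higher in male lines (background: 1.09%), and DESeq2 called 9 (background: 2.11%) and 2 (background: 2.18%). A limma-voom fit with the line as a random effect called none, with 4 members at an unadjusted p under 0.05. Without C102-M1 and C102-M30 edgeR on sums called none, and 5 members had an unadjusted p under 0.05.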

How the data were processed

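Total RNA of 24 BURP tumors (3 per line) was depleted of ribosomal RNA, made into libraries and sequenced in pairs. According to the study's methods the authors aligned the reads to GRCm38 with STAR 2.6.0a and GENCODE annotation. The table the authors deposited holds estimated counts by gene, made with RSEM 1.3.1, unfiltered and unscaled. The strand setting of the counting is not given in the sources used here. Of the values 12.5% were not whole, and all were rounded. Subtype follows the line names, and donor sex was taken from the study.

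The members and lists were chosen with earlier results of these data known. Levels are CPM after TMM normalization. Comparisons used edgeR 4.0.16 (R 4.3.3): quasi-likelihood tests after filterByExpr, Benjamini-Hochberg over all genes tested, and a call at an adjusted p under 0.05 and above 2-fold. Only the groups compared entered a fit. Lines were compared by an F test, and each with the mean of the other 5. For sex, counts were summed per line. Fits were tested on simulated data. Alternatives were other size factors, no filter or at least 10 counts in every tumor, DESeq2 1.42.0, limma 3.58.1, all 24 tumors in 1 fit, sums per line, label style as covariate, and each tumor, each line or the 2 doubtful tumors left out. Values per tumor are given for members reaching 10 CPM in some line and for the named envelope genes, statistics for up to 5 members with the largest change per comparison and direction and for those discussed beside them, and up to 3 genes per other list. Fosl1, Padi3, Krt27 and Csf3r were chosen after their values were seen.

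Total counts of 9295747 to 25370356 set the precision. Counting intervals and bounds (3 counts per tumor) cover counting error only. P4 and P4.2 of BURP-21BaSq share a passage, but the labels give a passage for some tumors only. Among the Ba/Sq lines, and between BURP-16SR and BURP-19NE, p-values measure the spread between tumors of a line. Those for BURP-16SR or BURP-19NE against the Ba/Sq tumors also take in the spread between Ba/Sq lines. But these tests count the 3 tumors of a line as separate, although such tumors share a donor. Where counts were summed per line, the p-values measure the spread between lines. Promoter windows came from RefSeq on GRCm38.p6. Krt85 was not matched in the table. Protein sequences were not used here.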

Additional observations from a re-analysis of the deposited data

Results flagged for a closer look

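Within the 9 tumors of the male Ba/Sq lines, 4 members had a tumor far from the nearest of the others on the log2(CPM + 1) scale, among 82 groups of a gene and a sex that were checked. Chance alone marks about 1 in 20 such groups. Lce3a was highest in C165-M30 of BURP-17BaSq, at 5.96 CPM beside 0.752 CPM in the next tumor. Lce3d was highest in C148-M3 of BURP-18BaSq, at 0.784 CPM beside 0.334 CPM, and these levels rest on few counts. Hrnr was highest in C149-M3 of BURP-18BaSq, at 6.52 CPM beside 1.98 CPM. S100a11 was lowest in C148-M3 of BURP-18BaSq, at 243 CPM beside 344 CPM.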

How the results depend on the processing

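Of 331 alternative values of the counts of members past the threshold, 269 stayed within 1.5 times the reported count and 62 moved beyond it. Of the alternatives for single members, 2311 kept their side of the threshold, 217 fell short of it, 8 newly passed and 0 changed direction. Asking for at least 10 counts in every tumor removes members near 0 by construction. It left 3 members lower in BURP-19NE, 2 lower in BURP-16SR and 2 higher in BURP-16SR than in BURP-19NE, 12 that differed among the lines, 3 for BURP-17BaSq, 2 for BURP-18BaSq, 3 for BURP-24BaSq and 2 for BURP-25BaSq. With counts summed per line, 1 line against 6, 13 were lower and 0 higher in BURP-19NE, and 8 were lower and 0 higher in BURP-16SR. DESeq2 called 35 lower in BURP-16SR. For BURP-21BaSq, no filter gave 8 and all 24 tumors in 1 fit gave 8. Without C102-M1 and C102-M30, BURP-21BaSq had 24, BURP-24BaSq 20 and BURP-25BaSq 4. With label style as covariate, BURP-21BaSq and BURP-25BaSq had 0. For sex, 3 members were higher in female lines without a filter, 15 by DESeq2, 4 with tumors as units and 9 by DESeq2 on tumors, and 1, 1 and 2 were higher in male lines by the last 3. The causes were not tested. Leaving out each tumor gave 2 to 11 members for BURP-12BaSq, 2 to 10 for BURP-17BaSq, 4 to 10 for BURP-18BaSq, 0 to 25 for BURP-21BaSq, 2 to 20 for BURP-24BaSq and 2 to 12 for BURP-25BaSq.

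No paired analysis was possible because tumors of different lines come from different donors, and their numbers only follow the order of deposit. No code or passage in the labels ties tumors of different lines together. Depth limits the members under 1 CPM and all of C102-M30.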
